A study of Mus musculus with 14 samples.

Results

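AGO2 PAR-CLIP of knockout (KO) macrophages listed 605 strong binding groups at places where the wild type (WT) library listed no group at all. A binding group is a cluster of overlapping reads, and strong means 50 or more reads. The 605 were selected on 2 criteria in the deposited group tables, a KO read count of at least 50 and no WT group sharing 1 nt or more on the same strand. They were 605 of 9381 strong KO groups, 6.45% (exact 95% interval 5.96 to 6.97), and of 85458 KO groups of any size. The other 8776 strong KO groups were overlapped by a WT group and serve for comparison. KO read counts and the lack of a listed WT group chose these groups, so both are given as descriptions with no test. Each listed group held at least 5 reads, and WT reads below that number could lie at these places.

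All cells were bone marrow derived macrophages of C57BL/6 mice, grown in 20% medium conditioned by L929 fibroblasts. The labels give 6 days of culture and the series text gives 7. KO cells carried ELAVL1f/f with LysM-Cre, and WT cells carried ELAVL1f/f without Cre, so both genotypes hold the floxed allele. LysM-Cre is driven from the Lyz2 locus, which is active in myeloid cells. PAR-CLIP with an antibody to mouse Ago2 gave 1 library per genotype, so no difference between its libraries has a replicate check. mRNA was sequenced in 4 libraries per genotype and small RNA in 2 per genotype.

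AGO2 is the protein that holds a microRNA (miRNA) and carries it to target mRNAs, mostly through pairing of the miRNA seed, bases 2 to 8, with a site in the 3' UTR. PAR-CLIP feeds cells the nucleoside 4-thiouridine, which crosslinks to bound protein and is later read as C, so a T-to-C conversion marks RNA that touched the protein. ELAVL1 (HuR) binds U-rich and AU-rich stretches of 3' UTRs, and its sites can lie near miRNA sites. 

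Elavl1 mRNA, the target of the knockout, measured 76.8, 64.1, 64.9 and 72.4 CPM (mRNA counts scaled to library size) in KO libraries 1 to 4, against 65.9, 61.2, 62.6 and 64.2 CPM in WT libraries. Counts over the whole gene cannot show whether the floxed part was removed, and the KO label rests on the submitters' description. Lyz2, which holds the Cre, measured 3720 to 6140 CPM in KO and 9950 to 15500 CPM in WT. The 10 macrophage markers were all detected. Without Lyz2 the other 9 summed to 10300 to 11200 CPM in KO and 10300 to 11300 CPM in WT, and with it all 10 summed to 14000 to 17300 CPM in KO and 21000 to 25800 CPM in WT. Markers of neutrophils summed to 22.3 to 55.5 CPM in KO and 10.2 to 32.0 CPM in WT. Fibroblast or stromal markers summed to 160.0 to 411 CPM in KO and 177 to 329 CPM in WT, mostly Lox. In bulk RNA, fewer cells of a type and less RNA per cell cannot be told apart. The 85458 KO PAR-CLIP groups of any size held 6445262 reads, and 40.0% of these groups had a conversion. The 66451 WT groups held 6287870 reads, and 58.9% of these groups had one. Libraries differed in more than the 605 places, and the part of that difference in the results below was not tested.

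A few of the 605 sequences are shown here as the tables give them on mm9, 5' to 3'. First come the groups with the most reads, because they carry the largest KO signals with no WT group. The leading 3 lay outside annotated genes, and Stx7 (a syntaxin of endosome fusion), Rimbp2 (a presynaptic scaffold) and Il22ra2 (a soluble IL-22 binding protein) followed among those in genes.
chr17:33813575-33813592, intergenic: cagtgcaggagagggcga
chr4:127053656-127053673, intergenic: gagtgctggagaggtaag
chr19:13418612-13418629, intergenic: ttgtgctaaagatttgta
Stx7, 5' UTR, chr10:23869105-23869123: cgcagtgggcgtgcttgtg
Rimbp2, intron, chr5:129267740-129267758: gctgcattggagaaggcac
Il22ra2, intron, chr10:19346661-19346678: aactctggatggtcggcc
These 6 groups were 18 or 19 nt long. The first had 1798 reads and no conversion, the second 750 reads with 86 conversion events, and the third 686 reads with none. Stx7 had 656 reads with 653 events at 1 location. Rimbp2 had 352 reads with no event, and Il22ra2 had 317 reads with 317 events at 1 location. The nearest WT group on the same strand was 2041 nt away or farther for all 6.

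Of the 121 members in 3' UTRs, 20 held a 7mer site for a counted miRNA family. The sites of 8 of them are in capitals below, chosen after their values were seen to cover 7 families. A group over 30 nt long is shown by up to 30 nt around the site.
Ncapg2 (a condensin II subunit), miR-27 site, chr12:117701617-117701643: caaatatcACTGTGAcatcctactgac
Setdb1 (a histone H3K9 methyltransferase), miR-29 site, chr3:95127830-95127857: aatcaggactttcccagcgTGGTGCTAg
Tet2 (a 5-methylcytosine dioxygenase), miR-29 site, chr3:133129278-133129321: gcaggatcatcTGGTGCTgacgtatgatgt
Rlim (a ubiquitin ligase), miR-93 site, chrX:101156274-101156302: tctcatatctgtgaacacGCACTTTAttg
Cpeb4 (a cytoplasmic polyadenylation factor), let-7 site, chr11:31833680-31833702: caaTACCTCAatttttcatattg
Mkl2 (a coactivator of SRF), miR-24 site, chr16:13413541-13413567: atatctctagagtaCTGAGCCAcacag
Chd7 (a chromatin remodeller), miR-30 site, chr4:8793853-8793902: tcctacTGTTTACActcacagttaatgttc
Zdhhc21 (a palmitoyltransferase), miR-21 site, chr4:82449003-82449027: cttccatttcagattacTAAGCTAg
The mature miRNAs that these sites pair with follow from RefSeq (GRCm38.p6), with bases 2 to 8 in capitals.
miR-27b-3p: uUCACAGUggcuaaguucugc
miR-29a-3p: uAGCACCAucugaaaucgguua
miR-93-5p: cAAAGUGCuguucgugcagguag
let-7c-5p: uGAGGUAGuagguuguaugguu
miR-24-3p: uGGCUCAGuucagcaggaacag
miR-30e-5p: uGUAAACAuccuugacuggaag
miR-21a-5p: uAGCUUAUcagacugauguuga

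Some short members shared a run of letters. GTGCAGTA stood in 5 of 605 members (0.826%), in 1 of 4174 overlapped groups of 50 to 100 reads (0.0240%), in 22 of 85458 KO groups and in 11 of 66451 WT groups, read on the group's own strand. This motif was picked after the sequences were seen. The most counted KO group with it is shown last, beside 4 of the 5 members, with GTGCAGTA in capitals.
chr10:34766477-34766493, intergenic: aGTGCAGTAtgggagac
chr10:9125346-9125363, intergenic: gaGTGCAGTAggtgagac
chr4:102735092-102735110, intron: agaGTGCAGTAgggcagac
Ctbp2, intron, chr7:140186413-140186429: aGTGCAGTAggggggac
chr4:9531367-9531383, overlapped by WT: tGTGCAGTAggggagac
The 4 members shown had 80, 67, 66 and 54 reads, and each of the 5 members differed from the last sequence by 2 substitutions in an ungapped placement. That sequence had 2664 reads in KO, and the WT group overlapping it had 216. None of these groups carried a conversion. More widely, 17 of the 605 members (2.81%) lay within 2 substitutions of a KO group of 1000 reads or more found elsewhere, against 161 of 4174 overlapped groups of 50 to 100 reads (3.86%).

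Membership depended on read count. Among KO groups of 5 to 9 reads 90.2% had no overlapping WT group, among those of 50 to 99 reads 11.4% (531 of 4664), among those of 100 to 199 reads 2.48%, and among those of 500 or more reads 0.654% (6 of 918). Members accordingly sat near the minimum, with a median of 62 reads (range 50 to 1798), against 106 reads in overlapped groups. At exactly 50 reads 40 of 212 KO groups had no WT group, and at 49 reads 45 of 203. Just inside the minimum, at 50 reads, were groups in the 3' UTRs of Mgat4a, Pogk, Slamf7 and Tnfaip3. Just outside it, at 49 reads, were groups in the 3' UTR of Sgpl1, the coding sequence of Psap and an intron of Blzf1. Because read count and membership went together, properties are given below beside the 4174 overlapped groups of 50 to 100 reads. Intervals are exact Clopper-Pearson at 95%, take groups as independent units and cover counting error only. Reads carry no molecular identifiers.

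**Figure D1:**
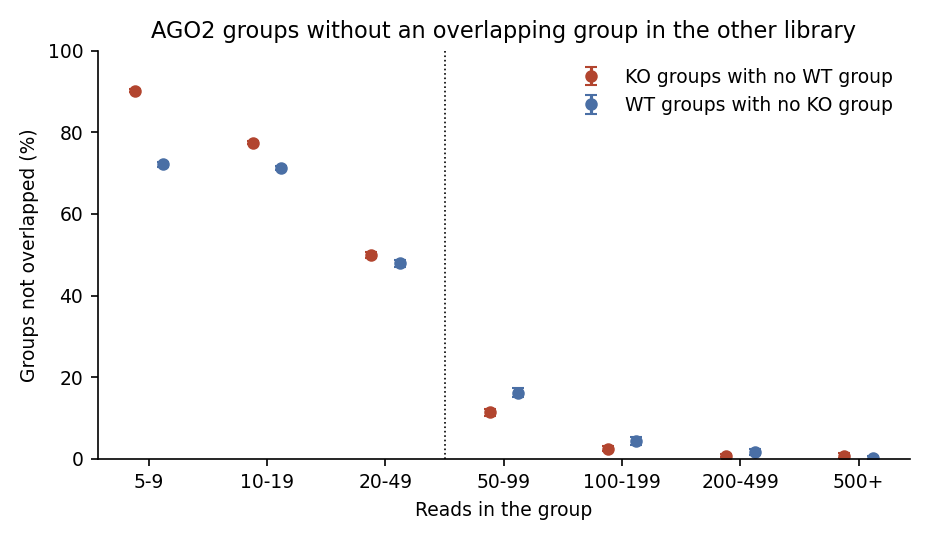
Share of PAR-CLIP groups with no overlapping group in the other library (y axis, percent) by reads in the group (x axis), for KO and WT groups, with exact 95% intervals; the dotted line marks the minimum of 50 reads. The KO share was 77.5% at 10 to 19 reads and 11.4% at 50 to 99 reads.

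Fewer members lay in 3' UTRs, and more lay in introns and outside genes, than among overlapped groups of like read count. In 3' UTRs lay 121 members, 20.0% (16.9 to 23.4), against 33.3% (31.9 to 34.8) of overlapped groups. Introns held 110 members, 18.2% (15.2 to 21.5), against 11.2% (10.2 to 12.2). Intergenic groups made up 297 members, 49.1% (45.0 to 53.2), against 38.3% (36.8 to 39.8). Coding sequence held 65 members, 10.7% (8.39 to 13.5), against 13.2% (12.2 to 14.3), intervals that overlap. The remaining 12 members were 3 in 5' UTRs, 3 in lincRNAs, 2 each in miRNAs and tRNAs and 1 each in a snoRNA and a miscRNA. Of the 532 members of 50 to 100 reads, 22.4% (18.9 to 26.2) lay in 3' UTRs and 16.9% (13.8 to 20.4) in introns. Intergenic groups made up 47.4% (43.1 to 51.7) of those 532, and coding ones 11.7% (9.05 to 14.7). With 1 library per genotype these intervals do not cover the spread between cultures.

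**Figure D2:**
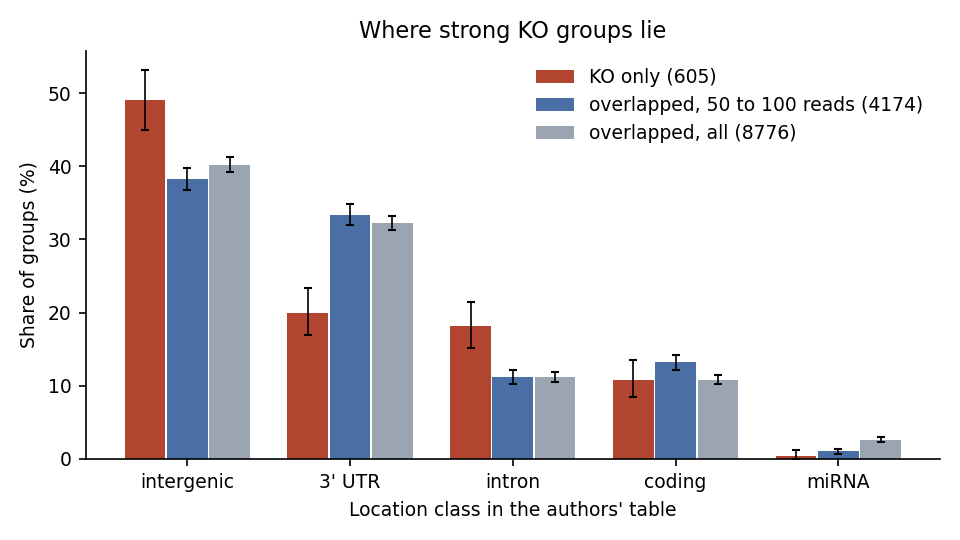
Share of groups (y axis, percent) in each location class of the authors' table (x axis) for KO-only strong groups, overlapped strong groups of 50 to 100 reads and all overlapped strong groups, with exact 95% intervals. The 3' UTR bar stood at 20.0% for KO-only groups and the intron bar at 18.2%.

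The opposite comparison gave another mix. Of 8332 strong WT groups 775 (9.30%) had no overlapping KO group. Members of the KO-only set were in 3' UTRs in 20.0% and without conversion in 49.6% of cases, whereas 395 of the 775 WT-only groups were in 3' UTRs and 22.6% had no conversion. The libraries as a whole differed in the same direction, since 31.5% of all strong KO groups and 45.5% of all strong WT groups were in 3' UTRs. No conversion was listed for 39.0% of all strong KO groups and 23.6% of all strong WT groups.

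T-to-C conversion separated the members by class. In 3' UTRs 118 of 121 members (97.5%) carried a conversion, close to the 98.0% of overlapped groups of 50 to 100 reads there. Coding members carried one in 55 of 65 cases (84.6%), or 55 of the 62 with 50 to 100 reads (88.7%), against 88.9%. Intron members carried one in 35 of 110 (31.8%), against 33.2%, and intergenic members in 92 of 297 (31.0%), against 28.5%. Within each class the member and overlapped intervals overlapped. Over all classes 300 of 605 members (49.6%, 45.5 to 53.6) had no conversion, against 39.4% (37.9 to 40.9), a gap that appeared together with the shift in class. Among members of 50 to 100 reads the share was 46.8% (42.5 to 51.1). Over all classes a second conversion location was rarer in members, in 88 of 605 (14.5%, 11.8 to 17.6) against 24.7% (23.4 to 26.1). Within 3' UTRs it stood in 43.8% (34.8 to 53.1) against 49.8% (47.1 to 52.4). In coding sequence it stood in 26.2% (16.0 to 38.5) against 38.7% (34.6 to 42.9). The shares were 6.36% against 4.71% in introns and 3.37% against 5.57% in intergenic groups. Within each of these classes the intervals overlapped, so this gap too appeared together with the shift in class. Members of 50 to 100 reads over all classes had a second location in 16.4% (13.3 to 19.8).

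Converted members, taken over all classes, more often had conversion events numbering close to their reads. In 201 of 305 converted members (65.9%, 60.3 to 71.2) the events reached 95% of the reads, against 54.8% (52.8 to 56.7) of overlapped groups of 50 to 100 reads. For 143 of those 201 the events came from 1 location. In the others 1 read can carry several events, so the ratio is not a share of reads. Among named members, Stx7, Il22ra2 and Dapk2 (a death-associated kinase, with 257 reads and 257 events in an intron) were of this kind. Oprd1, the delta opioid receptor gene, was the opposite, with 112 reads in its 3' UTR and 1 event. Split by class, the share of converted groups reaching 95% was higher in members in 3' UTRs, coding sequence, introns and intergenic groups. Only in intergenic groups were the intervals apart, at 70.7% (60.2 to 79.7) against 52.9% (48.2 to 57.5). In 3' UTRs the share was 63.6% (54.2 to 72.2) against 57.3% (54.6 to 59.9), intervals that overlap. The intervals also overlapped in coding sequence and in introns.

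Members were short. Their median length was 19 nt, against 22 nt in overlapped groups of 50 to 100 reads. Length followed conversion, with a median of 17 nt in unconverted members and 17 nt in unconverted overlapped groups. Converted members had a median of 24 nt (23 to 25), against 26 nt. In 3' UTRs the median was 27 nt in both. A run of 20 nt or less made up 382 of 605 members (63.1%) and 269 of 297 intergenic members (90.6%, 86.7 to 93.6), whereas 82.2% (80.3 to 84.1) of overlapped intergenic groups of 50 to 100 reads were that short. Converted groups of exactly 19 nt stood out in the length plot and were counted afterwards. They were 41 of 305 converted members (13.4%, 9.82 to 17.8), against 5.46% (4.60 to 6.41) of overlapped ones, 9.59% (9.28 to 9.91) of all converted KO groups and 6.78% of all converted WT groups. Of the 41 members 30 were intergenic.

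**Figure D3:**
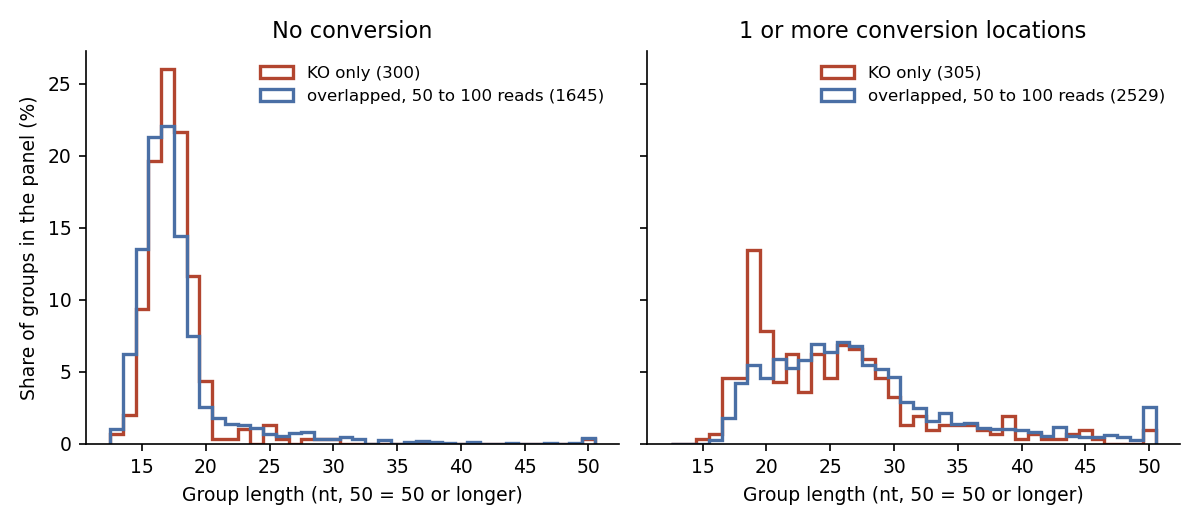
Length of groups in nt (x axis) as a share of the groups in each panel (y axis, percent), for groups without conversion (left) and with 1 or more conversion locations (right). Lines are KO-only strong groups and overlapped strong groups of 50 to 100 reads; the KO-only line peaks at 19 nt in the right panel, at 13.4%.

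The last base of a group also differed by class. It was G in 99 of 121 3' UTR members (81.8%, 73.8 to 88.2), against 84.9% (82.9 to 86.8) of overlapped 3' UTR groups of 50 to 100 reads. In intergenic members it was G in 106 of 297 (35.7%, 30.2 to 41.4), against 36.3% (33.9 to 38.7). GC content was a median of 38.7% in 3' UTR members and 37.0% in overlapped ones. In last base, the intervals of members and overlapped groups overlapped within each of these classes.

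Seed sites were counted for the 10 miRNA families with the most small RNA counts among miRNAs matched to a RefSeq name. They were led by miR-21a-5p, let-7c-5p, miR-146a-5p, miR-24-3p, miR-27b-3p, miR-140-3p, miR-99b-5p, miR-93-5p, miR-30e-5p and miR-29a-3p. Unmatched names were left out of the ranking, among them miR-378a-3p (896544 counts), miR-30d-5p (811728) and miR-142-3p (310704). The miR-29a-3p family had 215405 counts, so these are not the most counted families of all. A site was the complement of bases 2 to 8, or of bases 2 to 7 followed by A, on the group's strand. In 3' UTRs 20 of 121 members (16.5%, 10.4 to 24.4) held one, against 300 of 1392 overlapped groups of 50 to 100 reads (21.6%, 19.4 to 23.8) and 12.3% of all 17420 KO 3' UTR groups. Sites that were complementary to bases 2 to 8 and followed by A stood in 5 members (4.13%), against 6.97%. Split by length, 6 of 31 members under 25 nt held a site (19.4%) against 17.8%, 11 of 70 of 25 to 34 nt (15.7%) against 21.4%, and 3 of 20 of 35 nt or more (15.0%) against 27.2%. All of these intervals overlapped.

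By family, miR-27 sites stood in 5 of the 121 (4.13%, 1.36 to 9.38) against 6.54% (5.30 to 7.97), and miR-93 sites in 5 of the 121 against 1.94% (1.28 to 2.81). miR-24 and miR-29 sites stood in 3 members each, and let-7, miR-21 and miR-30 sites in 2 each. No 3' UTR member held a site for miR-146a-5p, miR-140-3p or miR-99b-5p, where 0 of 121 allows a share of up to 3.003% by the exact interval. The AU-rich pentamer ATTTA stood in 7 members (5.79%, 2.36 to 11.6) against 8.69% (7.27 to 10.3), and TTTTTT in 2 (1.65%, 0.201 to 5.84) against 4.38% (3.37 to 5.59). A matching run of letters is a description and not a measured site.

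Both members in miRNA genes had the sequence of a mature miRNA from its first base, with bases 2 to 8 in capitals.
miR-497a-5p, RefSeq: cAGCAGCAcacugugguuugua
member at chr11:70048232-70048253: cAGCAGCAcactgtggtttgta
miR-190b-5p, RefSeq: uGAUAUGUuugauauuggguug
member at chr3:89873952-89873968: tGATATGTttgatattg
The miR-497a group had 97 reads and the miR-190b group 53, neither with a conversion. In small RNA, the miRNA listed as miR-497-5p had raw counts of 15 and 18 in KO, against 9 and 14 in WT. Those of miR-190b-5p were 15 and 32 in KO, against 14 and 13 in WT. Scaled to the miRNA total of each library (CPM), miR-497-5p stood at 2.08 and 1.75 in KO, against 1.14 and 2.03 in WT. Its libraries thus overlapped between genotypes. On that scale miR-190b-5p stood at 2.08 and 3.12 in KO, against 1.78 and 1.89 in WT. The small RNA libraries are labelled KO 3 and 4 and WT 1 and 2. The table of the library labelled KO 4 names KO 2 over its column of fractions, so the number of that library is uncertain, and no pairing by number was used. Strong KO groups in miRNA genes were otherwise overlapped, in 230 of 232 cases.

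Most 3' UTR members lay close to WT binding. A WT group on the same strand stood within 50 nt of 45 of 121 (37.2%) and within 1000 nt of 109 (90.1%), with a median distance of 80.0 nt. Like distances for other KO groups in 3' UTRs were not computed, so this closeness is not shown to be particular to members. Over all classes 121 of 605 members had a WT group within 200 nt, and 115 had another KO group that near. Coding members had a median distance of 1738 nt, intron members of 18348 nt and intergenic members of 39958 nt. Within 1000 nt of a WT group lay 28 of 65 coding, 8 of 110 intron and 15 of 297 intergenic members. The Cpeb4 group shown above lay 1 nt from a WT group, and the Zdhhc21 group 2 nt. Tnfaip3, which encodes the NF-kB inhibitor A20, had its 50 reads 33 nt from a WT group of 36 reads. Ctsb, the lysosomal protease cathepsin B, had 53 reads 14 nt from a WT group of 21 reads. Scin and Cd300lf were exceptions, with the nearest WT group 26380 and 46937 nt away.

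**Figure D4:**
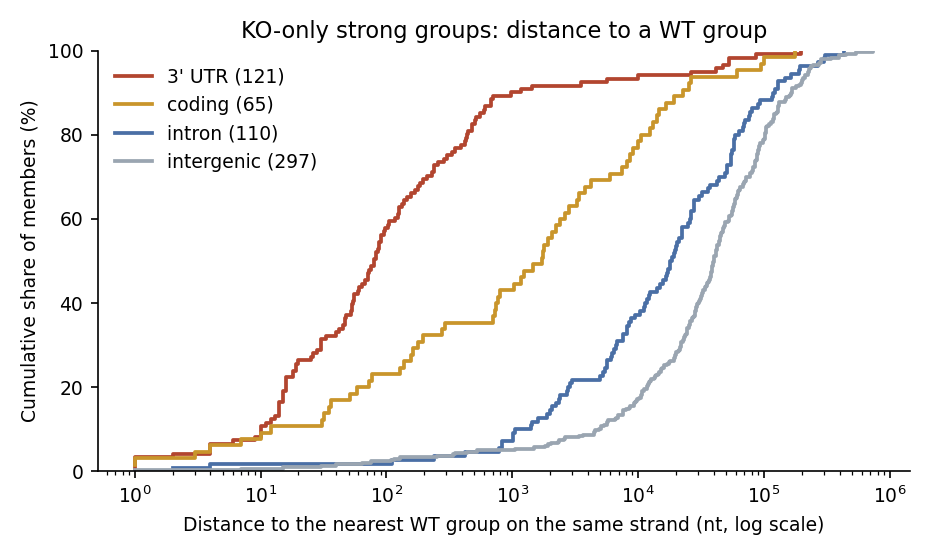
Cumulative share of KO-only strong groups (y axis, percent) by distance to the nearest WT group on the same strand (x axis, nt, log scale; distances under 1 drawn at 1), by location class. The median was 80.0 nt in 3' UTRs and 39958 nt outside genes.

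The 291 members with a gene name fell in 280 genes, and 247 of these genes (88.2%) had a WT group elsewhere. The like share over all genes with a KO group was not computed. Of the 280 genes 128 also had an overlapped strong KO group, beside 2995 of the 12033 gene names in the PAR-CLIP tables. There were 11 genes with 2 members each, Qk, Adcy7, Frs2, Uba1, Mef2a, Arfgef2, Zbtb34, Etnk1, Lpar6, Slc38a4 and Prr12, and no gene had more. Qk, which encodes the RNA-binding protein quaking, had 77 reads in a 3' UTR group and 55 in a coding one, within 44 groups and 2945 reads in KO, against 46 groups and 3803 reads in WT. Adcy7, an adenylyl cyclase, had 75 and 58 reads in 2 groups of its 3' UTR, within 18 groups and 830 reads in KO, against 18 groups and 616 reads in WT. Slc38a4, an amino acid transporter, had 56 and 50 reads in its introns and no WT group. Sums over groups move with how much was listed in each library.

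Of 212 gene symbols in the lists compiled for macrophages 3 had a member (1.42%), beside 280 of 12033 gene names in the PAR-CLIP tables (2.33%). The 212 were counted whether or not PAR-CLIP listed a group in the gene, so these shares have unlike bases. They also overcount genes, since Ago1 to Ago4 and Pkm stand again under the older symbols Eif2c1 to Eif2c4 and Pkm2. Of 20 inflammatory mediators 1 had a member (Tnfaip3), of 20 interferon response genes 1 (Rsad2, the antiviral enzyme viperin) and of 19 lysosome genes 1 (Ctsb). No member lay under the 18 symbols for miRNA silencing, 12 for AU-rich element binding, 11 for macrophage factors or 17 for the cell cycle. The same held for the 13 symbols for hypoxia and glycolysis and the 82 for cytosolic ribosomal proteins. Overlapped strong groups lay in 16 lysosome genes, 10 cell cycle genes, 7 miRNA silencing genes and 7 AU-rich element binding genes. They also lay in 5 interferon response genes, 3 ribosomal protein genes, and 4 genes each of the inflammatory, macrophage factor and hypoxia lists.

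mRNA of the genes with a member did not pass the test in either direction. Of the 280 genes 265 matched a counted Ensembl gene and 239 of these passed the filter on low counts. None of the 239 reached an adjusted p under 0.05 in edgeR's quasi-likelihood test, where 0.0% of all 14019 genes tested did. That fit did not call Lyz2 either (log2 fold change -1.29, SE 0.235, edgeR adjusted p = 0.9999). A lack of calls in it thus says little about the member genes. At an unadjusted p under 0.05 stood 1 of the 239, against 0.578% of all genes. That gene was Ctnnd2, a catenin with an intron member of 50 reads, at 2.80, 1.79, 2.24 and 2.53 CPM in KO, against 2.01, 0.654, 0.470 and 1.01 CPM in WT (log2 fold change 1.18, SE 0.452). With the replicate number as a block again none of the 239 passed, where 0.0357% of all genes did (5 genes, none with a member). Under the block 18 of the 239 (7.53%) were under an unadjusted p of 0.05, against 9.42% of all genes. Of the 18, 11 were higher in KO and 7 lower, against 4.9% and 4.52% of all genes. DESeq2 likewise called none of the member genes, and 2 genes in all, Lyz2 and Lyz1.

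The median log2 fold change, KO over WT, was -0.00023 over the 239 genes (95% interval -0.03 to 0.03), with 119 above 0 and 120 below. Intervals of these medians take genes as units and do not cover the spread between libraries. Leaving out a library moved this median beyond its interval, as given in the last paragraph. Over all 14019 genes the median was -0.0017. Genes with a 3' UTR member had a median of -0.01 (116 tested, 55 above 0 and 61 below), against -0.0060 in 1724 genes with an overlapped strong 3' UTR group. Genes with a coding member had -0.0026 (61 tested) and genes with an intron member 0.0079 (67 tested). Among the 33 genes with a member and no WT group of any size, 19 were tested and had a median of 0.04 (-0.12 to 0.12). The middle of the distribution thus lay within 0.05 of 0 on the log2 scale in each of these sets.

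Some members lay in genes with hardly any mRNA. Of matched genes 67 of 90 with an intron member passed the filter on low counts (74.4%), against 550 of 758 with an overlapped strong intron group (72.6%) and 65.4% of all 21444 genes. Of genes with a 3' UTR member 116 of 118 passed. Il22ra2, with 317 reads in its intron group, was at 0, 0, 0.0430 and 0 CPM in KO, against 0, 0, 0.0392 and 0 CPM in WT. Rimbp2, with 352 reads, was at 0, 0.0527, 0 and 0 CPM in KO and at 0 in all 4 WT libraries. Oprd1 was at 0, 0, 0.0860 and 0.0768 CPM in KO and 0, 0, 0.0392 and 0.0805 CPM in WT. Il18r1, the IL-18 receptor, had 102 reads in a coding group and was at 0, 0, 0.258 and 0.192 CPM in KO, against 0, 0, 0.0392 and 0.0403 CPM in WT. For these 4 genes strong KO groups and near-zero mRNA stood side by side.

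The member genes with the largest positive values among those averaging 10 CPM or more included a receptor and a nutrient sensor. Mamdc2 was at 1.91, 5.84, 41.7 and 28.6 CPM in KO, against 1.04, 5.42, 18.1 and 15.7 CPM in WT (log2 fold change 0.95, SE 0.962). Its libraries numbered 3 and 4 were high in both genotypes, so the groups overlapped although KO was higher within each number. Cd300lf, an inhibitory myeloid receptor, was at 6.75, 12.4, 43.6 and 31.9 CPM in KO, against 6.85, 7.94, 27.8 and 21.2 CPM in WT (0.57, SE 0.627). Its libraries overlapped between genotypes, and KO was higher in 3 of 4 numbers. On the log2 scale Rragd, a RAG GTPase of lysosomal nutrient sensing, stood at 0.40 (SE 0.460), and Mbd6, a methyl-CpG-binding domain protein, at 0.38 (SE 0.403). Each was higher in KO in 4 of 4 numbers.

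The lowest values belonged to Tnfaip3, BC005537, Tmpo, Pogk and Golim4. Tnfaip3 was at 59.1, 49.1, 59.4 and 54.0 CPM in KO, against 75.9, 50.9, 77.0 and 75.9 CPM in WT (log2 fold change -0.34, SE 0.171). KO was lower in all 4 numbers, with an adjusted p of 0.9999 in edgeR and 0.276 with the block. BC005537 (-0.32, SE 0.225) was also lower within all 4 numbers, and Tmpo, the lamina-associated protein LAP2 (-0.31, SE 0.217), in 3 of 4. Pogk had -0.23 (SE 0.198) and Golim4, a Golgi membrane protein, -0.22 (SE 0.192). None of these 9 genes passed the test with or without the block.

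**Figure D5:**
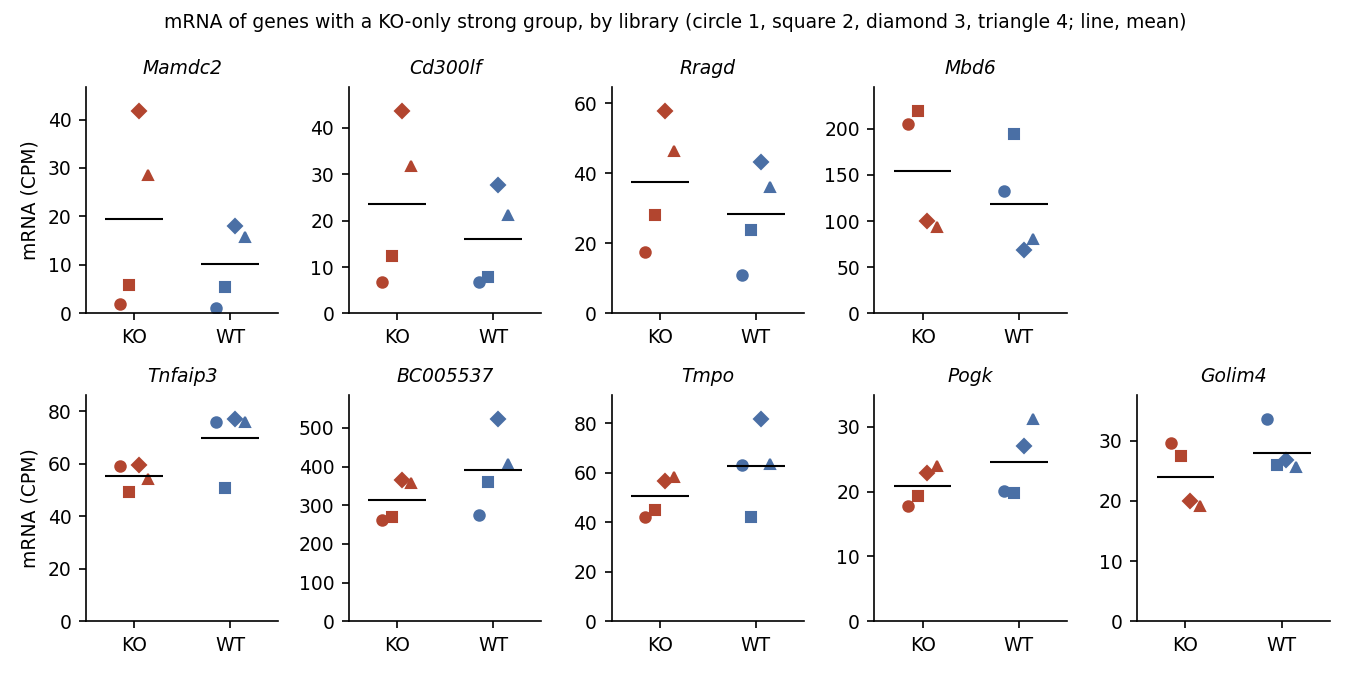
mRNA in CPM (y axis, from 0) in each KO and WT library (x axis) for 4 member genes with large and the 5 with the smallest log2 fold changes among those averaging 10 CPM or more; marks show library numbers 1 to 4 and lines the means. KO and WT libraries overlapped in all 9 panels; Mamdc2 ran between 1.91 and 41.7 CPM in KO and between 1.04 and 18.1 CPM in WT.

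Libraries of the 2 genotypes were fully apart in only 2 of the 239 genes, both higher in KO (0.837%), where 0.350% of all tested genes were fully higher and 0.435% fully lower. Adcy7 stood at 585, 575, 625 and 583 CPM in KO, against 531, 556, 533 and 573 CPM in WT. Cnot8, a subunit of the CCR4-NOT deadenylase with a coding member of 61 reads, stood at 54.8, 49.6, 52.7 and 51.7 CPM in KO, against 45.2, 49.3, 48.5 and 49.0 CPM in WT. Their log2 fold changes were 0.11 (SE 0.132) and 0.12 (SE 0.121), and neither passed edgeR's test (adjusted p = 0.9999 for each). For the 2 other listed genes with a member, libraries overlapped between genotypes, and KO was higher within 4 of 4 numbers for Ctsb and 3 of 4 for Rsad2. Ctsb was at 7160, 10800, 12500 and 11500 CPM in KO, against 6440, 10200, 11800 and 10900 CPM in WT (0.10, SE 0.260), and Rsad2 at 112, 55.2, 137 and 124 CPM in KO, against 123, 52.7, 106 and 112 CPM in WT (0.12, SE 0.332). Their signs turned when 1 library was left out, with Ctsb at -0.06 without WT 1 and Rsad2 at -0.09 without WT 2.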

How the data were processed

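The deposited PAR-CLIP tables give, per the file headers, read counts, conversion event counts and conversion locations for each group, on mm9 per the submitters' processing notes, which also name CASAVA 1.8.2 and Bowtie 0.12.7. No source used here names the program that made the groups or its handling of reads that map more than once. Each group held at least 5 reads. Whether coordinates start at 0 or 1 could not be settled. Location classes and gene names are the authors'. The authors deposited raw mRNA counts for 21444 genes and miRNA counts for 485 miRNAs, of which 368, with 92.9% of counts, matched a RefSeq name.

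Overlap needed 1 nt on the same strand. mRNA counts (8160789 to 25030262 per library) were tested with edgeR 4.0.16 (R 4.3.3), TMM scaling, filterByExpr and Benjamini-Hochberg adjustment, threshold 0.05, genotype alone in the design. DESeq2 1.42.0 was an alternative. CPM are TMM scaled. The labels do not name separate animals, and p-values cover only variation among these libraries, which may be technical. Equal numbers paired the libraries by the data for 1 and 2, where deviations from group means correlated at 0.770 and 0.810. For 3 and 4 they did not, since equal numbers gave 0.745 and 0.801. There KO 3 with WT 4 reached 0.832, and KO 4 with WT 3 reached 0.764. The replicate block, and statements of KO being higher or lower within numbers, rest on the labels alone for 3 and 4. Libraries 3 and 4 stood apart from 1 and 2.

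The members, gene lists and comparisons were chosen with earlier results of these data known. Named genes were the 20 members with most reads, the top 3 per class, the 5 genes with most members, called genes, the 5 largest and 5 smallest fold changes at 10 CPM or more, groups beside the 50-read minimum and up to 4 genes per list. Others were chosen after their values were seen. Some items that the rule names are not reported here. The overlap and edgeR steps were tested on simulated data. Python 3.11.15, pandas 2.3.3 and SciPy 1.17.1 were used.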

Additional observations from a re-analysis of the deposited data

Results flagged for a closer look

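Of 50 sets of 4 libraries checked for the named member genes, 3 held a library far from the other 3, and chance gives about 1 in 20. Lima1, an actin-binding protein with an intron member of 172 reads, was highest in KO library 1 at 250.0 CPM, with 203, 205 and 197 CPM in KO 2 to 4. Tnfaip3 was lowest in WT library 2 at 50.9 CPM, with 75.9, 77.0 and 75.9 CPM in WT 1, 3 and 4. Golim4 was highest in WT library 1 at 33.6 CPM, with 25.9, 26.8 and 25.7 CPM in WT 2 to 4.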

How the results depend on the processing

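The share of strong KO groups without a WT group was 17.4% at a read minimum of 30, 1.57% at 100 and 5.77% when a WT group within 50 nt ended membership. The 3' UTR share was 15.2% weighted by reads, 2.70% (2 of 74) at a minimum of 100 reads and 14.0% without members within 50 nt of a WT group. At 100 reads introns held 28.4% (21 of 74) and coding sequence 4.05% (3 of 74). Overlapped groups of 100 reads or more had 31.3% in 3' UTRs, 11.3% in introns and 8.74% in coding sequence. A second conversion location stood in 1.35% (1 of 74) at 100 reads, against 34.3% of those overlapped groups. It stood in 10.7% without members near a WT group, 43.8% of 3' UTR members and 28.9% of converted members. Median events per read, 0.043 over all members, was 1.0 in 3' UTR members and 1.0 in converted members. Median length was 18 nt at 100 reads, 27.0 nt in 3' UTR members and 24.0 nt in converted members. Seed sites, in 7.77% of all members, stood in 2.64% by 8mer, 16.5% of 3' UTR members and 12.1% over 20 families. The alternatives with converted members alone were chosen after seeing the data. The causes were not tested.

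Over all genes edgeR called 0 genes (81 at an unadjusted p under 0.05), 5 with the replicate block, 2 by DESeq2 and 14 with numbers 3 and 4 alone. With the replicate block 0 member genes were called and their median log2 fold change was -0.0029. In the fit without the block, leaving out 1 library moved the median of the member genes between -0.0506 and 0.0343. In that fit with all libraries the median was 0.0435 in member genes without any WT group. Of 350 refitted values for 25 named genes 29 had another sign, in 12 genes (Stx7, Prr12, Uba1, Lgals8, Lrrcc1, Rsad2, Ctsb, Qk, Arfgef2, Prpf3, Rcan3 and Vps41), and 0 crossed the threshold. Read counts near the minimum, and 1 library per genotype, limit what absence of a WT group shows.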
